A study of Homo sapiens with 9 samples.

Results

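The 10 genes described here are CDH1, CDH2, VIM, FN1, ZEB1, ZEB2, SNAI1, SNAI2, TWIST1 and GRHL2, which mark or control the epithelial-mesenchymal transition (EMT). They were taken by gene name from the 58735 genes of the count table. Their messenger RNA (mRNA) was measured in OVCAR3, an established human ovarian carcinoma cell line, after 72 h in culture. All 3 groups carried a short hairpin RNA, which a cell processes into a guide that lowers matching mRNAs. The scramble control group is labelled WT. The groups shRNA#76 and shRNA#78, called sh76 and sh78 here, are labelled GPX3 knock-down. GPX3 encodes glutathione peroxidase 3, a secreted enzyme that reduces peroxides. Each group had 3 replicates. The labels do not say whether these came from separate transductions or cultures, or whether a hairpin line was 1 clone, so the p-values measure only the spread between these samples.

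Epithelial cells are held together by E-cadherin, and in EMT this adhesion is loosened while N-cadherin, vimentin and fibronectin rise. The SNAI, ZEB and TWIST factors repress CDH1, and GRHL2 holds the epithelial program in place. ZEB1 and ZEB2 are themselves repressed by the miR-200 family of microRNAs, which pair with sites in their 3′ untranslated regions (3′ UTRs). Ovarian carcinoma cells often carry epithelial and mesenchymal cadherins together.

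OVCAR3 cells expressed the epithelial side of this circuit, and also the N-cadherin gene CDH2, but almost none of the ZEB factors. ZEB1 had 1 count over all 9 libraries, in sh76 replicate 2, and ZEB2 had 12 counts in total, with 3 libraries at 0. The ZEB2 counts were 0, 0 and 1 with scramble, 1, 6 and 2 with sh76 and 0, 1 and 1 with sh78. SNAI2, a second SNAI repressor, was at 0 in all 9 libraries. At these depths the 3 counts that a count of 0 allows correspond to 0.143 to 0.206 CPM (counts scaled to library size) in a library, which covers counting error only. These 3 genes did not pass the low-count filter, so no change could be tested for them, and 7 of the 10 genes were. ZEB1-AS1, annotated on the strand opposite ZEB1, had 8 to 25 counts per library. Its log2 fold change was 0.59 with sh76 (edgeR adjusted p 0.494) and 0.31 with sh78 (edgeR adjusted p 0.782). The libraries do not mark strand, so reads where ZEB1 and ZEB1-AS1 overlap cannot be told apart.

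ZEB1 and SNAI2 are at the floor, and ZEB2 is above it only in sh76 replicate 2 (0.2907 CPM). The sequences of the miR-200 pathway that acts on the ZEB mRNAs are given here as background. The mature miRNAs are RefSeq entries on GRCh38.p14, and the capitals mark the seed (bases 2 to 8). The first 3 share 1 seed, and the other 2 share another.
hsa-miR-200c-3p: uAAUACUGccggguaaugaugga
hsa-miR-200b-3p: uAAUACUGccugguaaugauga
hsa-miR-429: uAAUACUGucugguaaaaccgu
hsa-miR-141-3p: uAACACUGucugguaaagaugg
hsa-miR-200a-3p: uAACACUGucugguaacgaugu

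The 7 letters complementary to these seeds are CAGTATT and CAGTGTT, searched on the transcript strand only. The ZEB1 3′ UTR (2549 bases, GENCODE release 29, GRCh38) held 9 of them, 6 CAGTATT and 3 CAGTGTT. Of 2383 genes with a 3′ UTR within 20% of that length, ZEB1 itself included, 0.042% held at least as many. The ZEB2 3′ UTR (5370 bases) also held 9, 5 and 4 of each kind. Of 1118 genes of like length, ZEB2 itself included, 0.179% held at least as many. For each gene, 1 window of each kind is shown as DNA, with the match in capitals.
ZEB1, chr10:31527613-31527640, plus strand: ctggcattgttttatcttatCAGTATTa
ZEB1, chr10:31528026-31528053, plus strand: gacagcaaaatcatcagaatCAGTGTTt
ZEB2, chr2:144389052-144389079, minus strand: gtgcccgcactaccatacatCAGTATTt
ZEB2, chr2:144389236-144389263, minus strand: cattatgcaaaaattttgtaCAGTGTTa

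Among the other genes, FN1 had 2 such matches, SNAI2 and GRHL2 had 1 each, and CDH1, CDH2, VIM, SNAI1 and TWIST1 had 0. For comparison, 28.2% of the 3′ UTRs of 19145 genes held at least 1, whatever their length. Of 3′ UTRs of like length, 3.57% held at least as many as FN1, 23.9% as SNAI2 and 53.8% as GRHL2. For the genes with 0 matches, 4.41% (VIM) to 37.8% (CDH1) of 3′ UTRs of like length held at least 1. A match is a run of letters, not a shown site of repression. Mature miRNAs were not measured in these poly-A libraries. MIR200CHG, the chromosome 12 host transcript of miR-200c and miR-141, had 12, 10 and 18 counts with scramble, 22, 30 and 20 with sh76 and 12, 18 and 12 with sh78. In CPM the groups overlapped, and the log2 fold change was 0.64 with sh76 (edgeR adjusted p 0.395) and 0.13 with sh78 (edgeR adjusted p 0.914).

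SNAI and ZEB proteins bind the E-box CAGGTG, which reads CACCTG on the opposite strand and was counted on both as 1 motif. RefSeq promoter windows of 300 bases matched 5 of the 10 genes by symbol. CDH1, SNAI1, SNAI2, TWIST1 and GRHL2 had no window, so the E-box was not sought in them. None of the windows of CDH2 (2 windows), VIM, FN1 or ZEB2 (1 each) held it, and 2 of the 7 ZEB1 windows did. Over 35116 windows the share was 20.6%.

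Levels between genes were compared per transcript length as FPKM (fragment counts scaled to transcript length and library size) in the scramble group. CDH1, which encodes E-cadherin, was the highest at 39.2 ± 1.63 FPKM (SD, n = 3), at percentile 92.8 of the 13709 tested protein-coding genes. GRHL2 followed at 15.9 ± 0.68 FPKM (SD, n = 3), at percentile 79.2. CDH2, which encodes N-cadherin, was at 12.3 ± 1.26 FPKM (SD, n = 3), at percentile 73.9. These 3 levels did not overlap between libraries. TWIST1 (2.57 ± 0.303), FN1 (2.53 ± 1.66), VIM (2.40 ± 0.19) and SNAI1 (1.93 ± 0.285 FPKM, SD, n = 3) came next, and each neighbour in that order overlapped the one before it. Percentiles of these 4 lay between 29.1 and 34.3. With sh78, CDH2 (16.1 FPKM) and GRHL2 (15.9 FPKM) overlapped, so that the order of those genes was no longer separable.

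**Figure D1:**
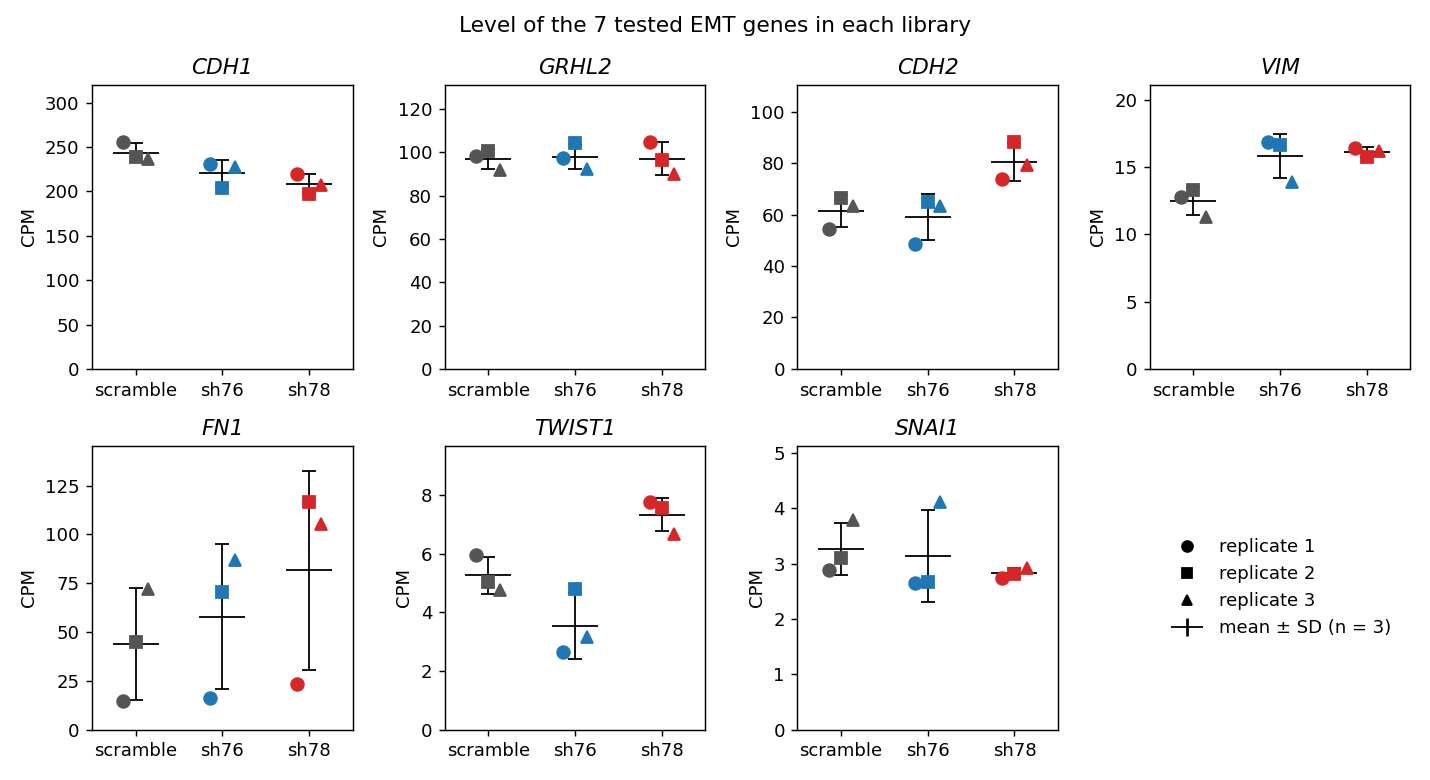
Normalised level (CPM, y axis from 0) of the 7 tested genes in each of the 9 libraries, with points shaped by replicate number and lines for the mean and SD (n = 3). CDH1 is lower and VIM higher in all 6 hairpin libraries than in the 3 scramble libraries, CDH2 is higher in the sh78 libraries than in the others, and FN1 is lowest in replicate 1 of every group.

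Total counts ran from 14652965 to 21327562 per library. GPX3, the targeted gene, had 173.2, 109.2 and 117.3 CPM with scramble, 56.81, 55.19 and 55.54 with sh76 and 35.28, 28.41 and 28.26 with sh78. It fell with sh76 (log2 fold change −1.25, edgeR adjusted p 0.00264) and further with sh78 (edgeR log2 fold change −2.12, adjusted p 0.000125). All 10 ovarian and epithelial markers were at 25.5 CPM or more in every library, and summed to 11900 to 12700 CPM with scramble, 10700 to 11500 with sh76 and 9840 to 10400 with sh78. Of 8 fibroblast markers, 4 reached 1 CPM, and LUM, DCN and PDGFRA stayed at or under 0.533 CPM. Their sums were 28.2 to 39.7, 31.5 to 56.4 and 35.9 to 48 CPM in the same order, most of it COL1A1. The 5 leukocyte markers summed to 1.22 to 2.7, 2.42 to 2.82 and 2.61 to 3.39 CPM. The 4 endothelial markers summed to 17 to 19.9, 18.1 to 24.2 and 23.1 to 31.9 CPM. Of these, KDR was at 8.94 to 21.2 and VWF at 5.37 to 9.82 CPM over the libraries. CDH5 was at or under 1.45 and PECAM1 at or under 0.579. The 4 mesothelial markers summed to 38 to 49, 35.7 to 45 and 39.6 to 53.3 CPM. Most of that was UPK3B, at 30.6 to 49.3 CPM. LRRN4 was at 1.44 to 5.57 CPM, CALB2 at or under 0.715 and ITLN1 at 0. The part of these sums in the results below was not tested. In bulk RNA, fewer cells of a type and less RNA per cell cannot be told apart.

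Against scramble, edgeR called 0 of the 7 tested genes with sh76, where 3.58% of all 17023 tested genes were called, and 0 with sh78, where 4.41% were. At an unadjusted p under 0.05 there were 2 with sh76 (VIM and TWIST1), beside 17.4% of all tested genes, and 4 with sh78 (CDH1, CDH2, VIM and TWIST1), beside 17.5%. DESeq2 called 0 with sh76 and 1, CDH2, with sh78, beside 880 and 989 of the 17023 tested genes. Limma on FPKM called 0 with either, beside 462 and 547 genes on log2(FPKM + 1) and 422 and 551 on log2(FPKM + 0.1). Libraries that share a replicate number deviated together, so each comparison was also fitted with that number as a block. The block called 3 of 7 with sh76, beside 20.4% of all tested genes, and 5 of 7 with sh78, beside 19.9%. With sh76 these were CDH1 and TWIST1 lower, beside 10.7% of all tested genes, and VIM higher, beside 9.63%. With sh78 they were CDH1 lower, beside 10.1%, and CDH2, VIM, FN1 and TWIST1 higher, beside 9.79%. A block fit on replicates 2 and 3 alone called 0 with sh76 (edgeR adjusted p 0.0703 for CDH1, 0.0955 for VIM and 0.34 for TWIST1). Their log2 fold changes there were −0.14, 0.31 and −0.32, against −0.14, 0.34 and −0.56 in the block fit on all libraries. It called 3 with sh78, where FN1 and TWIST1 were no longer called (0.242 and 0.0752), at 0.93 and 0.53 against 0.88 and 0.48. This fit has fewer libraries and so less power. Its share over all tested genes was not computed, and the cause of the lost calls was not tested. Median log2 fold changes over the 7 genes were −0.05 with sh76 and 0.37 with sh78, beside 0.01 over all tested genes for each.

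The scramble and hairpin libraries did not overlap for 2 of the 7 genes with sh76 (CDH1 and VIM), beside 22.5% of all tested genes. With sh78 this held for 4 of the 7 (CDH1, CDH2, VIM and TWIST1), beside 21.5%. For CDH1 and VIM all 6 hairpin libraries were on 1 side of all 3 scramble libraries, which held for 8.39% of all tested genes. Both comparisons use the same scramble libraries. Between sh78 and sh76 themselves, edgeR called 2 of the 7 genes, CDH2 and TWIST1, both higher with sh78, beside 1.97% of all tested genes called higher and 3.70% called in either direction. Those 2 genes were also the ones whose sh76 and sh78 libraries did not overlap, which held for 21.8% of all tested genes.

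**Figure D2:**
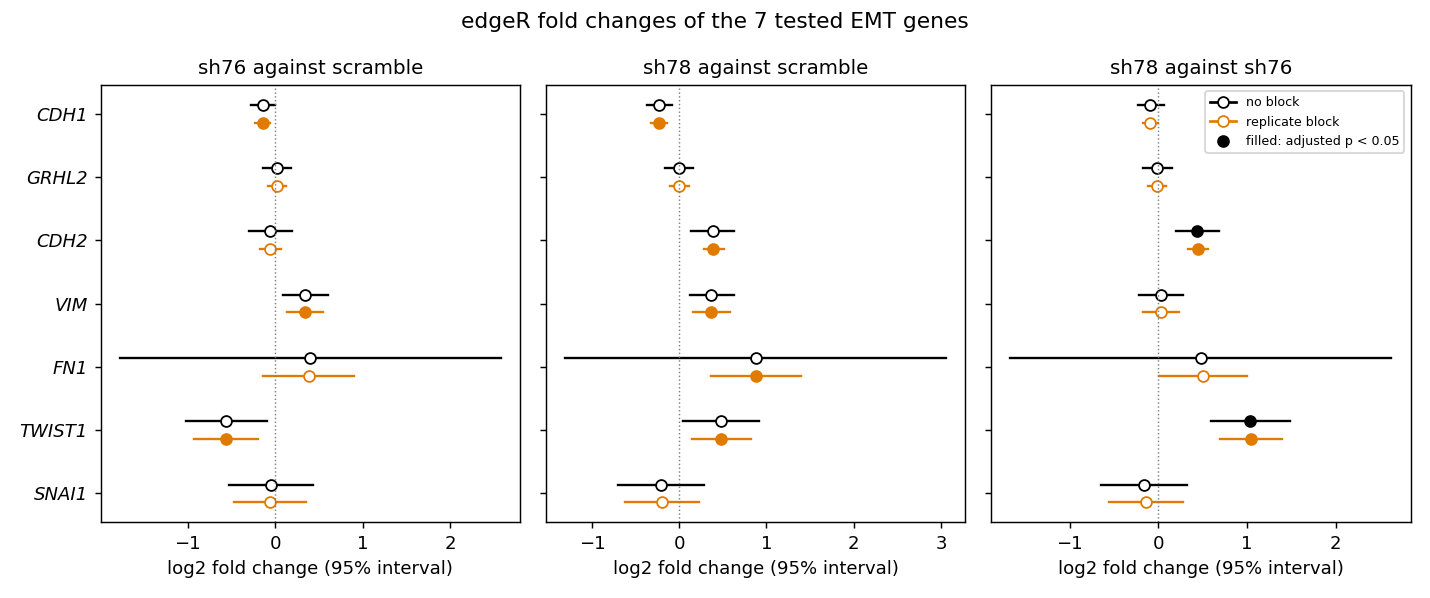
Log2 fold changes (x axis) from edgeR with 95% intervals for the 7 tested genes in 3 comparisons, without a replicate block (black) and with one (orange), where filled points have an adjusted p under 0.05. Without the block only CDH2 and TWIST1 in sh78 against sh76 are filled, and the FN1 intervals narrow most when the block is added.

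CDH1 (ENSG00000039068, chromosome 16, 68737225 to 68835548, plus strand, GRCh38) encodes E-cadherin, whose adhesion is loosened in EMT. Its libraries read 256, 238.7 and 236.4 CPM with scramble, 231.3, 204 and 227.9 with sh76 and 219.5, 197.1 and 207.8 with sh78. Every hairpin library was under the lowest scramble library, and the hairpins overlapped each other. The difference was small: log2 fold changes of −0.14 with sh76 (SE 0.07, edgeR adjusted p 0.296) and −0.23 with sh78 (SE 0.07, 95% interval −0.37 to −0.08, edgeR adjusted p 0.0772), that is 0.907 and 0.854 of the scramble level. With the block both were called, at edgeR adjusted p 0.014 and 8.48e-05. When 1 library at a time was left out of the block fit, the sh78 call held in 9 of 9 fits and the sh76 call in 6. E-cadherin mRNA stayed the highest of the 10 per length in each group, at 35.4 ± 2.43 FPKM with sh76 and 33.5 ± 1.74 FPKM with sh78 (SD, n = 3).

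GRHL2 (ENSG00000083307, chromosome 8, 101492432 to 101669726, plus strand), a grainyhead-like factor that activates CDH1, differed least between the groups. Its levels were 98.3, 100.6 and 91.75 CPM with scramble, 97.22, 104.1 and 92.48 with sh76 and 104.9, 96.36 and 90.03 with sh78. Libraries of the 3 groups overlapped. Log2 fold changes were 0.02 with sh76 (95% interval −0.14 to 0.18, edgeR adjusted p 0.947) and 0.00 with sh78 (95% interval −0.16 to 0.16, edgeR adjusted p 0.988). The block narrowed these intervals to −0.08 to 0.12 and −0.1 to 0.11.

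CDH2 (ENSG00000170558, chromosome 18, 27950966 to 28177446, minus strand) separated the hairpins. It had 54.45, 66.54 and 63.16 CPM with scramble, 48.55, 65.03 and 63.46 with sh76 and 73.74, 88.31 and 79.25 with sh78. In CPM, the sh78 libraries lay above all others, while those of sh76 overlapped scramble. Against sh76, CDH2 rose with sh78 by a log2 fold change of 0.44 (SE 0.11, 95% interval 0.2 to 0.69, edgeR adjusted p 0.0471). This call was narrow: it was lost in 8 of the 9 fits that left out 1 library, where the adjusted p ranged from 0.0256 to 0.158, and it was kept in 9 of 9 with the block (3.15e-08 over all libraries). Against scramble the log2 fold change was 0.39 with sh78 (SE 0.11, edgeR adjusted p 0.0772, and 6.01e-07 with the block) and −0.06 with sh76 (edgeR adjusted p 0.863, and 0.531 with the block). Replicates 2 and 3 were also above replicate 1 across groups, by a log2 difference of 0.27 in the block fit (edgeR adjusted p 3.67e-05). The lowest library of each group was replicate 1.

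The balance of the cadherins is shown by the ratio of CDH1 to CDH2 FPKM in each library. It was 3.77, 2.87 and 3 with scramble, 3.82, 2.51 and 2.88 with sh76 and 2.39, 1.79 and 2.1 with sh78. On this ratio the sh78 libraries lay below all others, and CDH1 stayed above CDH2 in 9 of 9 libraries. The ratio of CDH1 to VIM was 16.7, 15 and 17.5 with scramble, 11.4, 10.2 and 13.7 with sh76 and 11.2, 10.5 and 10.7 with sh78, so here both hairpins lay below scramble. These ratios are descriptions and carry no test of their own.

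VIM (ENSG00000026025, chromosome 10, 17228259 to 17237593, plus strand) encodes vimentin, the intermediate filament of mesenchymal cells. It had 12.79, 13.32 and 11.31 CPM with scramble, 16.9, 16.62 and 13.93 with sh76 and 16.43, 15.75 and 16.24 with sh78. Every hairpin library was above the highest scramble library. Log2 fold changes were 0.34 with sh76 (SE 0.12, edgeR adjusted p 0.142) and 0.37 with sh78 (SE 0.12, edgeR adjusted p 0.106). With the block both were called, at edgeR adjusted p 0.0132 and 0.00686. The sh76 call held in 5 and the sh78 call in 7 of the 9 block fits that left out 1 library. The hairpins differed by 0.03 (edgeR adjusted p 0.942). VIM-AS1, annotated on the opposite strand, had 9 to 36 counts per library. The libraries do not mark strand, so reads of the pair cannot be told apart. VIM-AS1 had a log2 fold change of 1.2 with sh76 (edgeR adjusted p 0.0687, and 0.0141 with the block) and 0.47 with sh78 (edgeR adjusted p 0.581).

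FN1 (ENSG00000115414, chromosome 2, 215360440 to 215436172, minus strand) encodes fibronectin, a matrix glycoprotein that mesenchymal cells secrete. Its level followed the replicate number more than the hairpin. It had 14.85, 45.01 and 72.28 CPM with scramble, 16.16, 70.51 and 86.94 with sh76 and 23.16, 116.4 and 105.3 with sh78. In the block fit, replicates 2 and 3 were 4.55 times replicate 1 (log2 difference 2.18, SE 0.19, edgeR adjusted p 0.00186), a comparison in which 24.1% of all tested genes were called. The groups overlapped widely, and without the block the sh78 log2 fold change of 0.88 had a 95% interval of −1.31 to 3.06 (edgeR adjusted p 0.707). Within the replicate numbers, sh78 was above scramble by 0.64, 1.37 and 0.54 and sh76 by 0.12, 0.65 and 0.27 on the log2 CPM scale. The block called sh78 (0.88, 95% interval 0.37 to 1.4, edgeR adjusted p 0.042) and not sh76 (0.38, edgeR adjusted p 0.28). This sh78 call held in 4 of the 9 block fits that left out 1 library, and with replicates 2 and 3 alone the value was 0.93 (edgeR adjusted p 0.242).

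TWIST1 (ENSG00000122691, chromosome 7, 19020991 to 19117672, minus strand), a basic helix-loop-helix repressor of CDH1, had the largest log2 difference between the hairpins of the 7 tested genes. It had 5.979, 5.046 and 4.765 CPM with scramble, 2.653, 4.797 and 3.149 with sh76 and 7.756, 7.566 and 6.691 with sh78. These rest on 43 to 144 counts per library. The sh78 libraries were above all others, and those of sh76 were low in replicates 1 and 3 while replicate 2 overlapped scramble. TWIST1 was 2.06 times as high with sh78 as with sh76 (log2 fold change 1.04, SE 0.21, 95% interval 0.59 to 1.49, edgeR adjusted p 0.0131). Without sh76 replicate 3 that became 0.96 (edgeR adjusted p 0.0631), and it was called in the other 8 fits that left out 1 library. The block also called it (1.05, edgeR adjusted p 1.22e-05), as it did 18.3% of all tested genes. Against scramble, the log2 fold change was −0.56 with sh76 (SE 0.21, edgeR adjusted p 0.181) and 0.48 with sh78 (SE 0.21, edgeR adjusted p 0.238). The block called both, in opposite directions, at edgeR adjusted p 0.0212 and 0.034, and these calls held in 5 and 4 of the 9 block fits that left out 1 library. The mean of both hairpins hides these opposite values.

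SNAI1 (ENSG00000124216, chromosome 20, 49982999 to 49988886, plus strand), a zinc-finger repressor of CDH1, was low in each group. It had 2.893, 3.11 and 3.789 CPM with scramble, 2.653, 2.665 and 4.104 with sh76 and 2.747, 2.82 and 2.923 with sh78, from 41 to 86 counts per library. The groups overlapped. Log2 fold changes were −0.05 with sh76 (95% interval −0.53 to 0.43, edgeR adjusted p 0.943) and −0.21 with sh78 (95% interval −0.7 to 0.29, edgeR adjusted p 0.719), and the block called neither. The sh76 interval includes the 0.34 measured for VIM, and the sh78 interval does not include the 0.37.

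**Figure D3:**
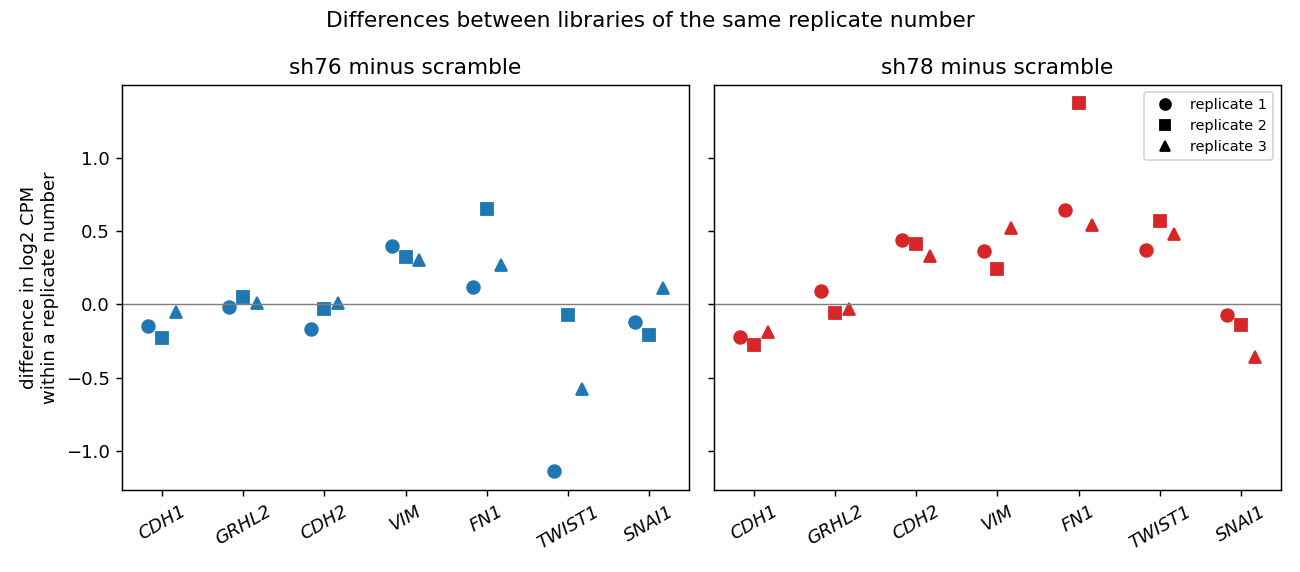
Difference in log2 CPM (y axis) between each hairpin library and the scramble library of the same replicate number, for the 7 tested genes. CDH1 is below 0 and VIM and FN1 above 0 in all 6 differences, whereas the TWIST1 differences are below 0 with sh76 and above 0 with sh78.

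The mean of both hairpins against scramble called 0 of the 7 genes in edgeR, beside 4.04% of all tested genes. At an unadjusted p under 0.05 there were 2, CDH1 and VIM, beside 17.6% of all tested genes. DESeq2 called 1, VIM (log2 fold change 0.36, adjusted p 0.0446), beside 983 of all tested genes. Limma called 0, beside 462 genes on log2(FPKM + 1) and 481 on log2(FPKM + 0.1). The block called CDH1 (−0.18, edgeR adjusted p 0.000193), VIM (0.36, edgeR adjusted p 0.00288) and CDH2 (0.17, edgeR adjusted p 0.0111), beside 20.3%. CDH1 and VIM were the 2 of the 7 genes that the block called in 1 direction with both hairpins, beside 8.29% of all tested genes, and with replicates 2 and 3 alone the block called 0 with both. Without the block no gene of the set was called with both, beside 1.32% of all tested genes.

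Other genes of the pathway were taken as 7 lists, whose counts stand beside the 3.58% (sh76) and 4.41% (sh78) of all tested genes called and an all-gene median of 0.01. Counts with the block stand beside 9.63% of all tested genes higher and 10.7% lower with sh76, and 9.79% higher and 10.1% lower with sh78. Those at an unadjusted p under 0.05 stand beside 17.4% and 17.5%. Calls between the hairpins stand beside 1.97% of all tested genes higher with sh78 and 3.70% in either direction. In the order of the lists below, edgeR called 0, 0, 0, 1, 3, 2 and 1 genes higher with sh78 than with sh76. It called 1, 2, 0, 1, 1, 0 and 0 lower. Only some of these are named. Epithelial transcription and splicing regulators held 13 tested genes. With sh76 edgeR called 0 of these, with 1 at an unadjusted p under 0.05, and with sh78 2 fell. KLF5, a Krüppel-like factor of epithelia, fell from 137 ± 9.42 to 106 ± 2.56 CPM (SD, n = 3) with sh78 (edgeR log2 fold change −0.38, adjusted p 0.00618), and GRHL3, a paralog of GRHL2, fell by 0.53 on the log2 scale (edgeR adjusted p 0.0438). GRHL3 was not called in 8 of the 9 fits with 1 library left out. The list medians were 0.02 and −0.10, and the block called 2 higher with sh76 and 3 lower with sh78.

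Among 18 epithelial surface and polarity genes, 2 rose and 1 fell with sh76, and 1 rose and 2 fell with sh78. EPCAM, the epithelial cell adhesion molecule, fell with sh78 from 317 ± 8.6 to 252 ± 11.4 CPM (SD, n = 3; log2 fold change −0.33, edgeR adjusted p 0.00387). With sh76 it was at 282 ± 3.05 CPM (SD, n = 3; log2 fold change −0.17, edgeR adjusted p 0.119, and 0.00281 with the block). CD24, a mucin-like surface protein of carcinoma cells, rose with sh78 (0.51, edgeR adjusted p 0.00839), and with sh76 it was called with the block alone (0.28, edgeR adjusted p 0.136, and 1.41e-06 with the block). SPINT1, an inhibitor of membrane serine proteases, rose with sh76 (0.39, edgeR adjusted p 0.00308), and CDS1, a CDP-diacylglycerol synthase, fell (−0.37, edgeR adjusted p 0.0458, lost in 6 of 9 fits that left out 1 library). With the block, edgeR also called these 2 with sh78 (SPINT1 0.12, adjusted p 0.0371, and CDS1 −0.17, adjusted p 0.0078). MUC1, a membrane mucin named after its values were seen, went in opposite directions. It had 46.3 ± 4.94 CPM with scramble, 67.8 ± 5.5 with sh76 and 32 ± 6.49 with sh78 (SD, n = 3), and edgeR called the difference between the hairpins (−1.08, adjusted p 0.000661). Against scramble edgeR called it both times (0.55 and −0.53, adjusted p 0.0309 and 0.0397), but 5 and 7 of the 9 fits with 1 library left out did not. The list medians were −0.06 and −0.08, and the block called 5 higher and 7 lower with sh76 and 2 higher and 7 lower with sh78.

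Of the cadherin partners and other classical cadherins, 12 of 14 were tested. CTNNB1, which encodes beta-catenin, which joins cadherins to alpha-catenin, fell with sh78 (498 ± 8.13 against 581 ± 19.4 CPM, SD, n = 3; log2 fold change −0.22, edgeR adjusted p 0.0346, lost in 6 of 9 fits that left out 1 library). With sh76 its log2 fold change was −0.12 (edgeR adjusted p 0.277, and 0.0245 with the block). With sh76 edgeR called 0, with 1 at an unadjusted p under 0.05, and the medians were −0.01 and 0. The block called 2 lower with sh76 and 3 lower with sh78. Among the other EMT transcription factors, 13 of 17 were tested, edgeR called 0 with sh76 (0 also at an unadjusted p under 0.05), and 1, the SRY-related factor SOX11, rose with sh78 (0.53, edgeR adjusted p 0.0464, lost in 7 of the 9 fits). Their medians were 0.02 and 0.05, and the block called 2 higher and 2 lower with sh76 and 3 higher and 2 lower with sh78.

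Mesenchymal and matrix genes held 19 tested genes of 22. With sh76, 2 rose and 0 fell, and with sh78, 4 rose and 0 fell. MSN, which encodes moesin, a linker of actin to the membrane, was the only one called with both. Its libraries read 235.4, 245.1 and 279.3 CPM with scramble, 327.1, 319.8 and 363.7 with sh76 and 313.2, 358.9 and 329.9 with sh78. Every hairpin library was above the scramble libraries (log2 fold change 0.41 and 0.40, edgeR adjusted p 0.00945 and 0.00858). Leaving out scramble replicate 2 took these to adjusted p 0.0526 and 0.0501, and leaving out sh78 replicate 2 took the second to 0.0515.

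TNC, which encodes the matrix protein tenascin C, had 90, 67.42 and 81.01 CPM with scramble, 87.1, 95.07 and 107.7 with sh76 and 134.6, 138.8 and 122.6 with sh78. It rose with sh78 (0.73, edgeR adjusted p 0.00136). CALD1 and TPM2, which encode the actin-binding proteins caldesmon and tropomyosin 2, also rose with sh78 (0.47 and 0.58, edgeR adjusted p 0.0119 and 0.031). The CALD1 call was lost without sh78 replicate 2 (0.37, edgeR adjusted p 0.0563), and the TPM2 call in 5 of the 9 fits that left out 1 library. With sh76 the values were 0.27 and 0.37 on the log2 scale (edgeR adjusted p 0.142 and 0.177, and 9.01e-06 and 0.0446 with the block). CD44, the hyaluronan receptor, named after its values were seen, rose with sh76 from 38.2 ± 7.55 to 63.8 ± 8.87 CPM (SD, n = 3; 0.74, edgeR adjusted p 0.0304, lost in 4 of the 9 fits). With sh78 it was at 24.6 ± 4.67 CPM (SD, n = 3; −0.64, edgeR adjusted p 0.0614, and 2.01e-09 with the block). Between the hairpins, where 3.70% of all tested genes were called in either direction, CD44 was the 1 gene of the list called lower with sh78 (−1.38, edgeR adjusted p 0.00128). The 3 called higher were TNC (0.45, edgeR adjusted p 0.0288, and 0.107 with the block) and, named after their values were seen, FSCN1 and TPM1. FSCN1, which encodes the actin bundler fascin, differed by 1.24 (edgeR adjusted p 0.0117), and the tropomyosin gene TPM1 by 0.53 (edgeR adjusted p 0.0118). Against scramble, the block called FSCN1 lower with sh76 (−0.78, edgeR adjusted p 0.0303) and TPM1 lower with sh76 and higher with sh78 (−0.27 and 0.26, edgeR adjusted p 0.000755 and 0.000891). The list medians were 0.11 with sh76 and −0.01 with sh78, so with sh78 the median lay below 0 while the 4 called genes lay above it. With the block, 5 were higher and 2 lower with sh76, and 7 higher and 3 lower with sh78.

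In the TGF-beta pathway, the best-known inducer of EMT, 0 of 17 genes rose and 1 fell with sh76, and edgeR called 0 with sh78, where 8 had an unadjusted p under 0.05. The gene that fell was TGFBR3, a co-receptor (−0.50, edgeR adjusted p 0.0308, lost in 5 of 9 fits that left out 1 library). With sh78 it was at −0.26 (edgeR adjusted p 0.283, and 0.0489 with the block). The medians were −0.08 and 0.11, and the block called 1 higher and 4 lower with sh76 and 7 higher and 3 lower with sh78. Of 18 corepressors and turnover factors of the SNAI and ZEB proteins, edgeR called 1 with sh76 and 0 with sh78, where 2 had an unadjusted p under 0.05. In each of these 5 lists where edgeR called 0 with a hairpin, DESeq2 and limma on FPKM also called 0. PAK1, a kinase that phosphorylates SNAI1, fell with sh76 from 335 ± 10.4 to 254 ± 6.66 CPM (SD, n = 3; −0.40, edgeR adjusted p 0.00133) and was at 344 ± 8.5 CPM with sh78 (SD, n = 3; 0.04, edgeR adjusted p 0.814). Set against each other, the hairpins differed (0.43, edgeR adjusted p 0.000649). The medians of this list were −0.01 and 0.01, and the block called 1 higher and 4 lower with sh76 and 1 higher and 2 lower with sh78.

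**Figure D4:**
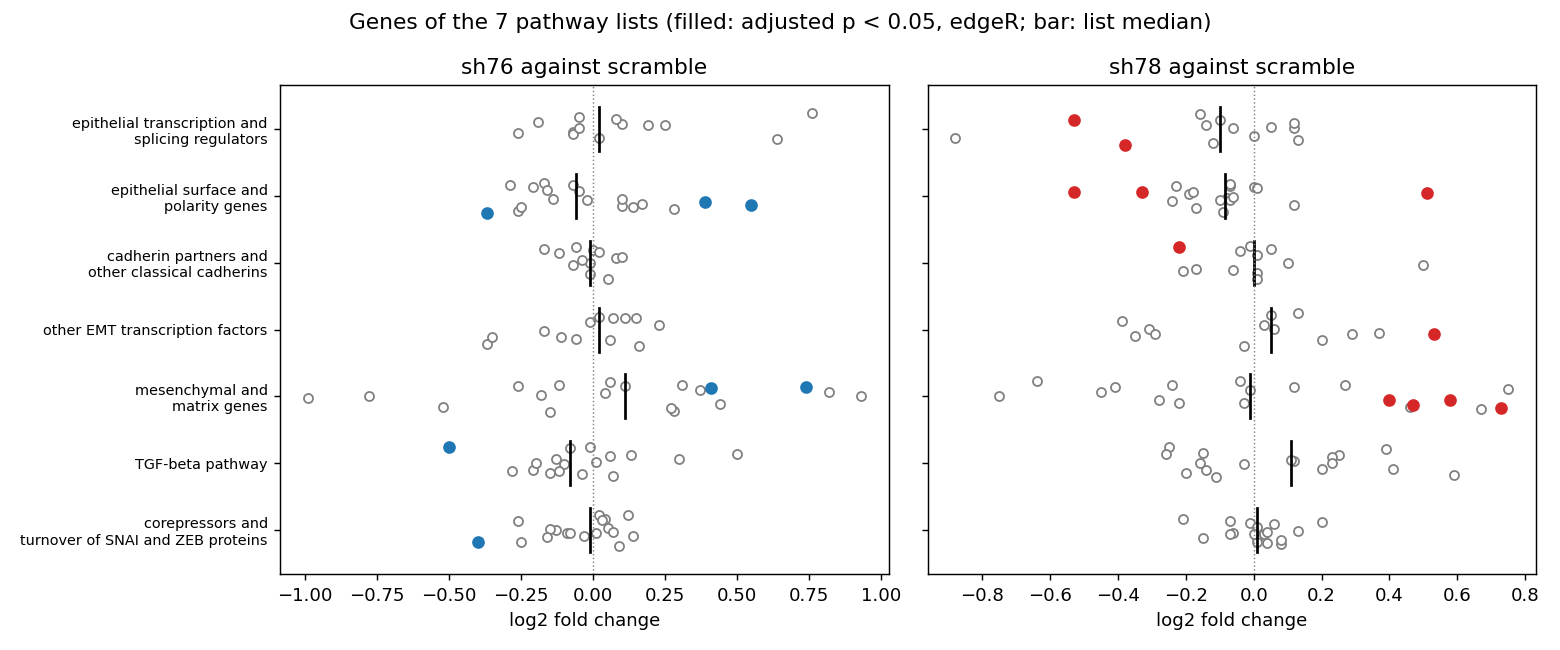
Log2 fold change (x axis) of each tested gene of the 7 lists against scramble, for sh76 (left) and sh78 (right), with filled points called by edgeR and a bar at the list median. The medians lie between −0.10 and 0.11, and the mesenchymal list has 2 called genes with sh76 and 4 with sh78, all to the right of 0.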

How the data were processed

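Poly-A RNA was sequenced from 9 OVCAR3 samples in 3 groups taken from the sample titles. The authors deposited raw counts per gene and FPKM values. HISAT2 2.0.5, featureCounts 1.5.0-p3 and the build hg38 are named in the submitters' processing notes, and the libraries were non-directional per the labels' protocols. Reads of overlapping genes on opposite strands therefore cannot be told apart. The 10 genes and the 7 lists were chosen with earlier results of these data known.

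The main test on the counts was that of edgeR 4.0.16 (R 4.3.3; filterByExpr, minimum count 10, TMM scaling, robust quasi-likelihood fit, 1 coefficient per group over all 9 samples). Genes tested numbered 17023, and a gene was called at a Benjamini-Hochberg adjusted p under 0.05. CPM uses TMM-scaled totals. Between same-numbered libraries of different groups, deviations from the group means correlated at 0.14 to 0.39 in all 9 pairs, against −0.31 to 0.06 in the 18 other pairs. The numbers, which the sample titles give, were therefore taken to pair the samples, and the block fit is given where it changes a call printed for a named gene against scramble or a count of calls. No replicate duplicated another: chi-square per degree of freedom was 4.9 to 11.1.

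Alternatives were DESeq2 1.42.0, RLE scaling, no filter, the compared groups only, limma 3.58.1 on log2(FPKM + 1) and log2(FPKM + 0.1), and each library left out. Fits on replicates 2 and 3, and block fits with 1 library left out, were added after seeing the data. The fit was tested on simulated data, which held the same changes for both hairpins and no effect of replicate number. Such data cannot show how the block acts where replicate numbers differ. All 10 genes were named, and of each list up to 4 called genes with the lowest adjusted p for the mean of both hairpins. The 2 genes most like each called gene were to be named for genes called against scramble, and there were 0 of these. Sequences are from RefSeq (GRCh38.p14) and GENCODE 29 with GRCh38.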

Additional observations from a re-analysis of the deposited data

Results flagged for a closer look

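For 2 of the 7 tested genes, edgeR called a difference between sh78 and sh76, beside 3.7% of all tested genes. For CDH2, sh78 was above sh76 by a log2 fold change of 0.44, with 3 of 3 same-numbered pairs higher. With single libraries omitted, CDH2 stayed called in only 1 edgeR fit and not in 8. For TWIST1, sh78 was above sh76 by 1.04, again in 3 of 3 pairs, and TWIST1 stayed called in 8 such fits and not in 1. The pairs come from the same libraries as the calls, so they add no separate support. Of the uncalled genes, FN1 was also higher with sh78 in 3 of 3 pairs, and CDH1 was lower in 3 of 3. With 3 samples in a group, single libraries were not screened as outliers.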

How the results depend on the processing

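The replicate block raised the genes called from 610, 750, 687 and 629 (sh76, sh78, the mean of both hairpins, and sh78 against sh76) to 3467, 3388, 3462 and 3117, and those called with both hairpins from 224 to 1412. It kept 610, 749, 683 and 625 of the first 4. It raised the EMT genes called to 3, 5 and 3 against scramble and 2 with both hairpins, and changed no other call on them. Omitting the low-count filter gave 1149, 1212, 1181 and 1125 genes and 424 with both. Leaving out 1 library gave 237 to 655, 418 to 810, 299 to 726 and 273 to 780 genes and 108 to 213 with both; sh76 replicate 2 set the lowest sh76, direct and shared counts, and scramble replicate 2 the other lowest ones. The EMT genes called for sh78 were 1 with DESeq2, with the compared groups only and with replicates 2 and 3, 2 without the filter, 3 with block and replicates 2 and 3 (0 for sh76 and 0 with both hairpins), and 0 to 1 with 1 library left out. For the mean they were 1 with DESeq2 and 3 with block and replicates 2 and 3. For sh78 against sh76 they were 1 with the compared groups only, on both FPKM scales and with replicates 2 and 3, and 0 to 2 with 1 library left out. The cause was not tested.

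Some uncalled values changed sign, among them FN1 with sh76 (0.40 with all libraries). Leaving out 1 library gave −0.14 to 0.06 for CDH2 and −0.02 to 0.95 for FN1 with sh76, −0.3 to 0.07 for SNAI1 with sh76 and −0.27 to 0.09 between hairpins, −0.18 to 0.06 for TWIST1 in the mean, −0.05 to 0.08 for VIM between hairpins, and, for GRHL2, −0.03 to 0.05, −0.06 to 0.05, −0.03 to 0.03 and −0.07 to 0.04 in the 4 comparisons. With replicates 2 and 3, with or without the block, TWIST1 in the mean became 0.1 and 0.11, and GRHL2 became −0.05 with sh78 and −0.01 in the mean. On both FPKM scales GRHL2 with sh78 was 0. In block fits with 1 library left out, reversed values were −0.02 and −0.05 (VIM between hairpins), 0.03 with sh76 and 0.02 and 0.01 between hairpins (SNAI1), 0.1 and 0.07 (TWIST1 in the mean) and −0.05 to 0.03 (GRHL2, with 0, −0.02, −0.01 and 0.02 among them). Of 497 gene and setting pairs outside these block fits, 432 kept direction and side of the threshold. ZEB1, ZEB2 and SNAI2 allow no test at this depth.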
